A study of Mus musculus with 2 samples.

Results

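Cones, the photoreceptors of daylight and color vision, turn light into an electrical signal through a short chain of proteins, and the messenger RNAs of 9 of its cone-specific members were followed across the cell types of mouse retina at postnatal day 30 (P30). The genes were taken by name as parts of the cascade: Opn1sw, Opn1mw, Arr3, Gnat2, Gngt2, Pde6c, Pde6h, Cnga3 and Cngb3. All 9 were among the 25778 genes of the deposited count table, and all 9 had UMIs in cones of both libraries. Dissociated whole retina was profiled by droplet single-cell RNA sequencing in 1 Chx10-Cre control mouse (Ptbp1-Ctrl) and 1 Chx10-Cre;Ptbp1lox/lox mouse (Ptbp1-KO), giving 1 library per genotype and 30943 cells in all. Both mice carried Chx10-Cre, a Cre-GFP transgene active in retinal progenitors, and in the Ptbp1-KO mouse it removes the floxed promoter and first exon of Ptbp1 from their progeny. Ptbp1 encodes an RNA-binding protein that regulates splicing. Every difference between the genotypes below therefore compares these 2 libraries, has no replicate check and carries no p-value.

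Levels are given as CPM, the unique molecular identifiers (UMIs) of a gene per 1000000 UMIs summed over the cells of one type and library. Intervals in parentheses are exact 95% intervals that cover counting error only. The cone sums held 632 cells and 1745145 UMIs in Ptbp1-Ctrl and 439 cells and 1425527 UMIs in Ptbp1-KO, with medians of 2659.5 and 3179 UMIs per cone. Every deposited cone lay in 1 cluster, number 7. Ptbp1 itself gave 24 UMIs in Ptbp1-Ctrl cones and 1 in Ptbp1-KO cones, and 294 and 6 UMIs in Müller glia (MG).

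Several features of the libraries touch the results. The mice are described as female, but both libraries held Y-linked transcripts, with Uty at 188 and 201 CPM, and only 5 and 6 UMIs of Xist. Of the cell barcodes, 63 occurred in both libraries, 24 of them with the same cell type, and 4 cones carried such a barcode. A cluster deposited as bipolar cells (BC), number 21, expressed the cone genes at high levels and is described separately. Cones carried the summed rod markers Nrl, Nr2e3, Gnat1, Sag and Pde6b at 41.4% and 40.6% of the rod level in Ptbp1-Ctrl and Ptbp1-KO, all 5 of them with UMIs. Sag made up most of that sum, at 6397 and 5893 of 8792 and 8313 CPM, next to 11477 and 11228 CPM in rods. Gnat1 stood at 1352 and 1536 CPM in cones against 5362 and 5395 CPM in rods. The 5 BC markers stood at 2.38% and 2.52% of the BC level in cones, the 5 amacrine cell (AC) markers at 2.37% and 2.34% of the AC level, and the 4 MG markers at 1.01% and 0.994% of the MG level. Ganglion cell markers stood at 0.195% and 0.733% of the ganglion cell level in cones, and horizontal cell markers at 0.158% and 0.306% of theirs. Cone markers outside the 9 genes followed the label: Gnb3, the cone transducin β subunit, stood at 2475 and 2393 CPM in cones and 59.1 and 61.1 CPM in rods.

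In the dark, cone channels built from Cnga3 and Cngb3 are held open by cyclic GMP, and the cell is depolarized. Light isomerizes the chromophore of an opsin, the opsin activates transducin (Gnat2 with its γ subunit Gngt2), transducin relieves the phosphodiesterase Pde6c from its inhibitory subunit Pde6h, and cyclic GMP falls, so that the channels close. Arr3, cone arrestin, binds phosphorylated opsin and ends the signal. Rods use a parallel set of genes, and mouse cones commonly make both the short-wavelength opsin Opn1sw and the medium-wavelength opsin Opn1mw, with Opn1mw prevailing in dorsal and Opn1sw in ventral retina. The position of each cone in the retina was lost on dissociation.

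The 9 genes lie on 7 chromosomes of the mouse genome. In the GENCODE annotation of GRCm38, Cnga3 spans positions 37214434 to 37263384 of chromosome 1, Gnat2 108092789 to 108101432 of chromosome 3, and Cngb3, the longest at 229774 bases, 19280850 to 19510623 of chromosome 4. Opn1sw (29376671 to 29388468, minus strand) and Pde6h (136923832 to 136968865) share chromosome 6, Gngt2 (95837216 to 95845734) lies on chromosome 11 and Pde6c (38132781 to 38183958) on chromosome 19. Opn1mw (74127464 to 74150760) and Arr3 (100605497 to 100618493) are X-linked, and all but Opn1sw are on the plus strand. Exons of Opn1sw, Gngt2 and Pde6h overlap exons of Calu, Abi3 and Arhgdib on the opposite strand, and whether counting used strand is not given in the sources used here.

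The upstream sequences of the 2 opsins and of Arr3 are shown because the opsins sort the cones into the classes compared below and Arr3 had the ratio of largest size between those classes among the other members when all UMIs were used. Each is the 250 bases before the RefSeq transcription start in GRCm38.p6, on the strand of the gene, at chr6:29380514-29380763 (minus strand) for Opn1sw, chrX:74127216-74127465 for Opn1mw and chrX:100605247-100605496 for Arr3. Capitals mark matches to a nuclear receptor half-site (AGGTCA, or TGACCT on the other strand) or a TATA box (TATAAA).
Opn1sw: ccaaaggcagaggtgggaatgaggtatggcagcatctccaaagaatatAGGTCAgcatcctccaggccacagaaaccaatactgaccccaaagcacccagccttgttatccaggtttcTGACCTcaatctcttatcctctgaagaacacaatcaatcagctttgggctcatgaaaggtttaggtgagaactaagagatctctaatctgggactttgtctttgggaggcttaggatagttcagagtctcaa
Opn1mw: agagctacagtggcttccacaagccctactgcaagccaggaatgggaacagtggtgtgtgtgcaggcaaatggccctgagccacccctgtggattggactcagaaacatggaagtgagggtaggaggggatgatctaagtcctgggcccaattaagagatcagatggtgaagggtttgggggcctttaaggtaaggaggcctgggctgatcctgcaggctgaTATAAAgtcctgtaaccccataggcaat
Arr3: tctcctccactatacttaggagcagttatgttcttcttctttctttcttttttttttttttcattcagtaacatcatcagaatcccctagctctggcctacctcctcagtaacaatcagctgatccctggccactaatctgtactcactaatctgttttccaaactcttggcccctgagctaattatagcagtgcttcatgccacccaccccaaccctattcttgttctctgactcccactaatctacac
Opn1sw held the half-site at both orientations, 202 to 197 and 132 to 127 bases before the start, and Opn1mw held TATAAA 28 to 23 bases before it. None of these letters, nor the CRX-type motif TAATCC or GGATTA, was in the Arr3 window. Among 32841 RefSeq promoter windows of this length, 14.0% held the half-site, 7.59% TATAAA on the gene's strand and 6.25% the CRX-type motif. Of the 6 members with a window, Gnat2 held the CRX-type motif as GGATTA, 19 to 14 bases before its start, and Pde6h and Cnga3 held none of the 3 motifs.

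Cones held the highest level of all 9 genes in both libraries. Opn1sw was counted at 8472 CPM (8336 to 8610) in Ptbp1-Ctrl cones and 8403 CPM (8253 to 8554) in Ptbp1-KO cones, against 36.1 and 35.9 CPM in rods. Opn1mw stood at 3142 and 3244 CPM in cones and 9.51 and 10.1 CPM in rods. Arr3 stood at 7101 and 8371 CPM in cones and 40.6 and 53.1 CPM in rods. Both transducin subunits followed the same pattern. Gnat2 was at 1854 and 1853 CPM in cones and 13.6 and 14.8 CPM in rods, and Gngt2 at 3634 and 3801 CPM in cones and 44.3 and 54.4 CPM in rods. The catalytic phosphodiesterase subunit Pde6c stood at 1612 and 1270 CPM in cones and 6.60 and 7.73 CPM in rods, and the inhibitory subunit Pde6h at 5949 and 5726 CPM in cones and 57.4 and 64.0 CPM in rods. Of the channel subunits, Cngb3 stood at 2406 and 2429 CPM in cones, whereas Cnga3 was the sparsest member with 174 and 168 UMIs, or 99.7 and 118 CPM. Levels are UMIs not divided by transcript length, so these values are compared between cell types and libraries and not between genes.

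**Figure D1:**
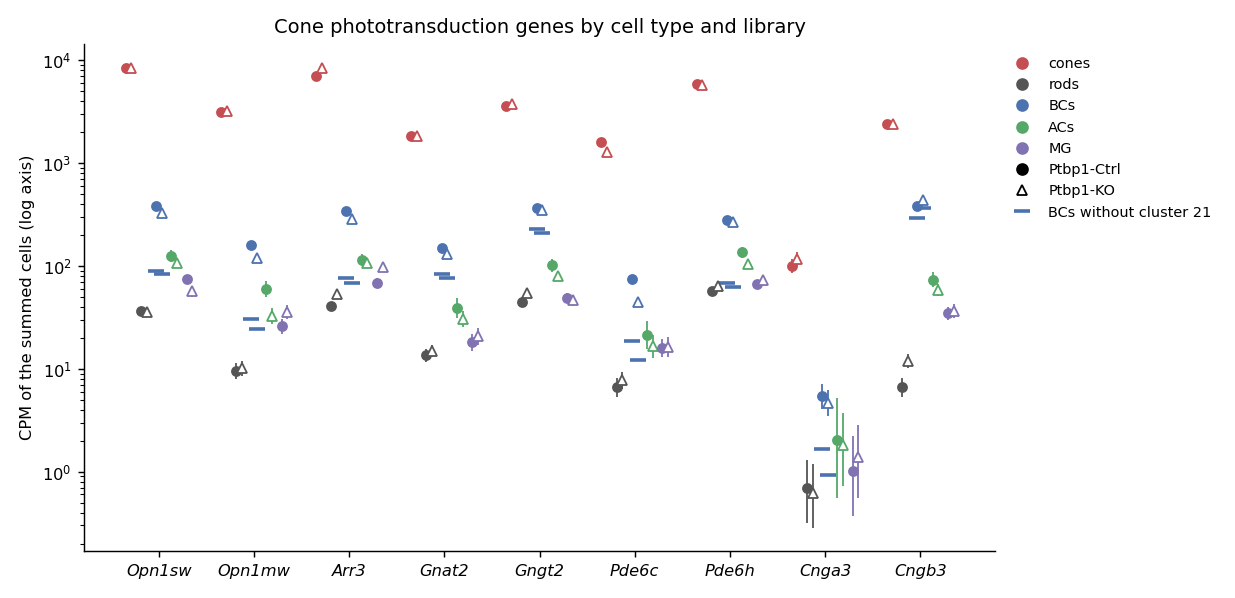
Level of each of the 9 genes in CPM (log axis) in cones, rods, BC, AC and MG of Ptbp1-Ctrl (filled circles) and Ptbp1-KO (open triangles), with 95% counting intervals; the short blue bars give BC without cluster 21. Cones are highest for every gene, from 99.7 CPM for Cnga3 to 8472 CPM for Opn1sw in Ptbp1-Ctrl, and BC with cluster 21 included are second.

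The next highest type was BC for all 9 genes in both libraries. Cones exceeded BC by 6.23-fold for Cngb3 to 22.1-fold for Opn1sw in Ptbp1-Ctrl, and by 5.55-fold for Cngb3 to 28.9-fold for Arr3 in Ptbp1-KO. All 9 genes were thus at least 4-fold higher in cones than in the next type, a log2 ratio of 2, which 0.593% of 4388 genes reached in Ptbp1-Ctrl and 0.585% of 4446 genes in Ptbp1-KO. In each library 26 genes did so, among genes with a mean of at least 50 CPM over the 5 largest types. Cnga3 lay under that minimum and was not among the genes counted. The 9 genes were chosen as cone-specific and the types were named from marker genes, so these ratios do not test cone specificity. In rods the members ranged from 0.274% to 1.22% of their cone level in Ptbp1-Ctrl and from 0.310% to 1.43% in Ptbp1-KO. In AC they ranged from 1.33% to 3.06% and from 1.01% to 2.42%, and in MG from 0.825% to 1.44% and from 0.674% to 1.51%. Horizontal and ganglion cells were too few to rank, with at most 124 cells per library. Cones held 75.1% and 72.4% of all Opn1sw UMIs of the Ptbp1-Ctrl and Ptbp1-KO libraries, but 49.9% and 40.6% of all Cngb3 UMIs.

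Free RNA released during dissociation gives low counts in droplets of every type. Opn1sw had a UMI in 82.1% of Ptbp1-Ctrl cones (78.9 to 85.0, median 2659.5 UMIs) and in 3.71% of rods (3.35 to 4.10, median 1088 UMIs), and Opn1mw in 79.3% and 1.16%. In Ptbp1-KO, Opn1sw had a UMI in 88.6% of cones and 5.05% of rods, and Opn1mw in 87.9% and 1.49%. Rods carried on average 0.0592 and 0.0716 opsin UMIs per cell, against 32.1 and 37.8 per cone. The rod shares are the background against which the shares of cones with an opsin are read.

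Within BC, most opsin counts came from a single cluster. Cluster 21 held 118 Ptbp1-Ctrl and 81 Ptbp1-KO cells of the 3194 and 2549 BC, and 14.9% and 15.3% of all Opn1sw UMIs of the libraries. Its summed member level reached 56.0% and 57.1% of that of cones, its summed BC markers 28.8% and 26.3% of the BC level, and its rod markers 17.6% and 21.3% of the rod level. Its cells were deep, with medians of 5432.5 and 7191 UMIs against 2729.5 and 3770 in other BC. Of these cells, 111 of 118 and 75 of 81 held 10 or more opsin UMIs. Whether these were doublets of a cone and a BC or cells of 1 kind was not tested, and doublets were not called here. Without this cluster, BC held Opn1sw at 1.05% and 1.001%, Opn1mw at 0.967% and 0.752%, Arr3 at 1.08% and 0.816%, Pde6c at 1.16% and 0.961%, Pde6h at 1.16% and 1.09% and Cnga3, on 15 and 9 UMIs, at 1.65% and 0.790% of the cone level. For each of these genes AC then stood above BC in both libraries. Opn1sw, for example, was at 126 and 107 CPM in AC against 88.6 and 84.1 CPM in BC without the cluster.

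Cngb3, Gngt2 and Gnat2 stood above those percentages in BC without cluster 21. Cngb3 stood at 295 CPM (284 to 307) in Ptbp1-Ctrl and 366 CPM (354 to 378) in Ptbp1-KO, or 12.3% and 15.1% of the cone level. Gngt2 stood at 230.0 and 207.5 CPM, or 6.33% and 5.46%, and Gnat2 at 82.9 and 75.7 CPM, or 4.47% and 4.09%. These counts were concentrated in some BC clusters. In cluster 13, Cngb3 reached 1714 CPM (1622 to 1809) and 1891 CPM (1804 to 1981), 71.2% and 77.9% of the cone level, with a UMI in 93.0% and 95.7% of cells, while each opsin stayed at or under 0.81% of its cone level. In cluster 18, Cngb3 was at 949 and 932 CPM and Gngt2 at 782 and 911 CPM. In cluster 20, Cngb3 was at 692 and 723 CPM. Gngt2 was high without Cngb3 in cluster 11, at 570 and 551 CPM, where Cngb3 was at 53.8 and 33.4 CPM. Gnat2, the other transducin subunit, reached 12.1% and 14.5% of its cone level in cluster 18. Over clusters 11, 13, 18 and 20, neither opsin exceeded 1.499% of its cone level in either library.

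**Figure D2:**
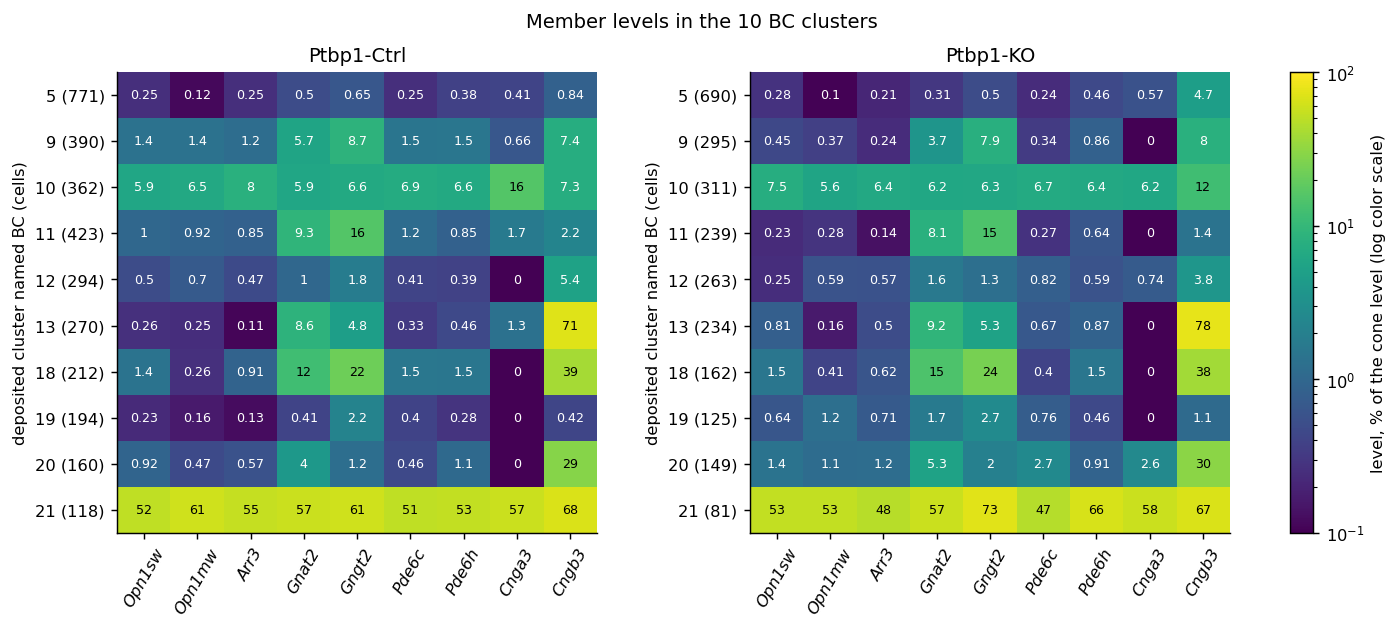
Level of each gene in the 10 clusters deposited as BC, as a percent of its level in cones of the same library (log color scale; the value is printed in each cell of the map), for Ptbp1-Ctrl (left) and Ptbp1-KO (right), with cell numbers in parentheses. Cluster 21 carries all 9 genes, whereas clusters 13, 18 and 20 carry Cngb3 and clusters 11 and 18 carry Gngt2 with low opsin levels.

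Cngb3 also differed between the libraries in a BC cluster that held little of it. In cluster 5, the largest BC cluster with 771 and 690 cells, Cngb3 had 50 UMIs (20.3 CPM) in Ptbp1-Ctrl and 342 UMIs (115 CPM) in Ptbp1-KO. The log2 ratio was 2.50 (2.07 to 2.96). This cluster was singled out after its values were seen. A log2 ratio of 2 or more was reached by 0.0263% of the 3797 genes measured in cluster 5, which is Cngb3 alone, and the next gene, Abhd14b, was at 1.96. The intervals of the other 8 members in cluster 5 all included 0. Cells with a Cngb3 UMI made up 5.45% (3.95 to 7.29) of cluster 5 in Ptbp1-Ctrl and 20.1% (17.2 to 23.3) in Ptbp1-KO, at median depths of 2987 and 4155.5 UMIs. With each cell thinned to 1000 UMIs, the shares were 1.95% (1.10 to 3.20) of 769 cells and 7.11% (5.31 to 9.29) of 689 cells. In Ptbp1-KO, 47 cells held 3 or more Cngb3 UMIs and the highest held 16, or 4.68% of the cluster's Cngb3 UMIs, whereas in Ptbp1-Ctrl 2 cells reached 3. Those 47 cells carried the rod BC gene Prkca at 6885 CPM and Pcp2 at 5328 CPM, next to 6602 and 5846 CPM in the 551 cells without a Cngb3 UMI, and 3 UMIs of Opn1sw. In the other BC clusters that carried it at high levels, the ratio of Cngb3 was smaller, at 0.14 (0.04 to 0.25) in cluster 13, -0.03 (-0.20 to 0.15) in cluster 18 and 0.06 (-0.22 to 0.35) in cluster 20. In clusters 11 and 12 it was lower in Ptbp1-KO, at -0.69 (-1.38 to -0.03) and -0.48 (-0.87 to -0.09), as it was in AC cluster 15, at -0.76 (-1.26 to -0.26). In cluster 9 it was 0.12 (-0.13 to 0.37), in cluster 10 0.73 (0.39 to 1.08), and in cluster 19, on 8 and 19 UMIs, 1.36 (0.10 to 2.76). In rods, where Cngb3 had 86 and 174 UMIs, it was 0.86 (0.48 to 1.25). In cones it was 0.01 (-0.05 to 0.08).

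In cones, the comparison of the genotypes asks whether the cascade differed when Ptbp1 was removed from the progenitors. At the fold rules used here, 1 of the 9 genes, Pde6c, had a log2 ratio of Ptbp1-KO over Ptbp1-Ctrl at or beyond 0.25 in size, where 27.7% of the 3997 genes measured in cones did. None reached 0.5, which 4.93% of genes did. Pde6c was lower in Ptbp1-KO, at 1270 CPM (1213 to 1330) against 1612 CPM (1553 to 1673). Its log2 ratio was -0.34 (-0.43 to -0.26), and 14.2% of genes had a ratio of larger size. Arr3 was higher, at 0.24 (0.20 to 0.27), with 30.0% of genes beyond it. Cnga3 had a similar ratio of 0.24 on far fewer counts, and its interval of -0.07 to 0.56 included 0. The opsins were close to equal, at -0.01 (-0.05 to 0.02) for Opn1sw and 0.05 (-0.01 to 0.10) for Opn1mw, and the ratio was 0.00 (-0.08 to 0.07) for Gnat2 and 0.01 for Cngb3. Gngt2 was at 0.06 (0.01 to 0.12) and Pde6h at -0.06 (-0.10 to -0.01). The median of the 9 was 0.01, next to -0.02 over all 3997 genes, whose 5th to 95th percentiles spanned -0.39 to 0.39.

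**Figure D3:**
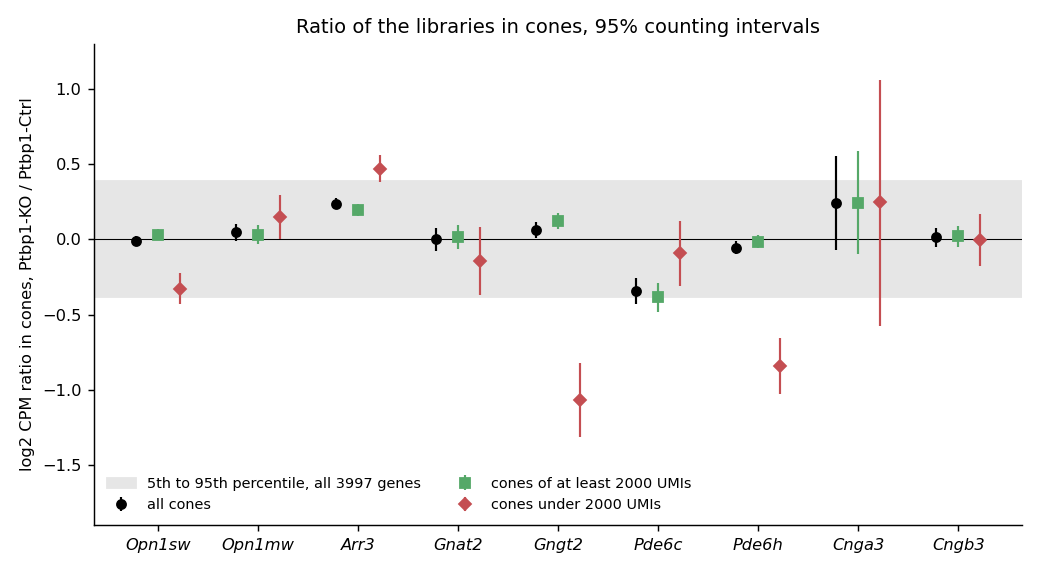
The log2 ratio of Ptbp1-KO over Ptbp1-Ctrl in cones for each gene, with 95% counting intervals, in all cones (black circles), in cones of at least 2000 UMIs (green squares) and in cones under 2000 UMIs (red diamonds); the gray band spans the 5th to 95th percentile of all 3997 genes. In all cones every gene lies inside the band, and in the shallow cones Gngt2 lies at -1.07 and Pde6h at -0.84.

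The ratios of Gngt2 and Pde6h depended on the depth of the cones. Cones were split at 2000 UMIs after the data had been seen, which put 178 of 632 Ptbp1-Ctrl cones and 125 of 439 Ptbp1-KO cones, 28.2% and 28.5%, into the shallow set. In the shallow cones Gngt2 stood at 2202 CPM in Ptbp1-Ctrl against 1051 CPM in Ptbp1-KO, or -1.07 (-1.32 to -0.82) as a log2 ratio, whereas in cones of 2000 or more UMIs it stood at 3855 and 4189 CPM, a ratio of 0.12 (0.07 to 0.17). Pde6h stood at 3502 and 1955 CPM in the shallow cones, a ratio of -0.84 (-1.03 to -0.66), and at 6325 and 6257 CPM in the deeper ones, a ratio of -0.02 (-0.06 to 0.03). Both genes were thus lower per UMI in shallow cones of each library, by 1.75-fold and 1.81-fold in Ptbp1-Ctrl and by 3.98-fold and 3.20-fold in Ptbp1-KO. Arr3 went the other way, at 8666 and 12009 CPM in shallow cones against 6860 and 7859 CPM in deeper ones, and its ratio between the libraries was 0.47 (0.38 to 0.56) and 0.20 (0.16 to 0.24). Opn1sw had a ratio of -0.33 (-0.43 to -0.23) in shallow cones and 0.03 (-0.01 to 0.07) in deeper ones. Pde6c differed in the deeper cones, at -0.39 (-0.48 to -0.29), while its interval in the shallow ones, -0.31 to 0.12, included 0. Among shallow cones 4 members passed 0.25 and 2 passed 0.5, where 55.6% and 27.8% of 1681 genes did, and among deeper cones 1 and 0 did so, where 28.1% and 5.44% of 3987 genes did. Shallow and deeper cones had median mitochondrial shares of 4.47% and 3.90% in Ptbp1-Ctrl and 4.37% and 3.29% in Ptbp1-KO, and the nuclear RNA Malat1 stood at 30638 and 26858 CPM in Ptbp1-Ctrl and 35754 and 32910 CPM in Ptbp1-KO, whose part in these ratios was not tested.

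Outside cones the members were low, and their ratios between the libraries did not run in 1 direction. In rods, Arr3 stood at 40.6 and 53.1 CPM, a log2 ratio of 0.39 (0.23 to 0.55), and Gngt2 at 0.30 (0.14 to 0.46), while Opn1sw was at -0.01 (-0.19 to 0.17). In MG, Opn1sw was lower in Ptbp1-KO, at 74.5 and 56.6 CPM, whereas Opn1mw was higher, at 25.9 and 35.8 CPM. A single MG cluster, number 22 with 89 and 54 cells, carried Opn1sw at 6.89% and 7.20% of its cone level and Opn1mw at 6.20% and 13.9%. Among MG clusters Opn1mw was higher in Ptbp1-KO in this cluster alone, at 195 and 450 CPM. It was lower in cluster 4, at 4.39 and 3.14 CPM, and in cluster 16, on 29 and 0 UMIs. In AC, Opn1mw stood at 60.3 and 32.7 CPM, with a ratio of -0.88 (-1.26 to -0.51). The AC clusters differed: Opn1mw was at 48.5 and 28.9 CPM in cluster 6 and 85.1 and 9.30 CPM in cluster 14. In cluster 15 it went the other way, at 11.5 and 57.9 CPM on 5 and 56 UMIs. In BC, cluster 21 included, Pde6c was lower in Ptbp1-KO, at -0.73 (-0.90 to -0.56) on 725 and 458 UMIs, and stood at 18.7 and 12.2 CPM without that cluster.

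Across single cones, Gngt2 and Pde6h also moved together. With every cone thinned to 1000 UMIs, Pearson's r between their log counts was 0.58 over 589 Ptbp1-Ctrl cones and 0.75 over 425 Ptbp1-KO cones, the highest among all pairs of members in each library. The next highest was Opn1mw with Arr3, at 0.48 and 0.43, and the lowest was Opn1sw with Opn1mw, at -0.59 and -0.31. These values describe cones that share a library, an animal and a fixed depth.

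The 2 opsins were unevenly spread over the cones. Opn1sw ranged from 0 to 140 UMIs per cone in Ptbp1-Ctrl, with a median of 18, and from 0 to 104 in Ptbp1-KO, with a median of 19. Opn1mw ranged from 0 to 50 UMIs with a median of 5 in Ptbp1-Ctrl, and from 0 to 44 with a median of 9 in Ptbp1-KO. Opn1sw had no UMI in 17.9% and 11.4% of cones, and Opn1mw in 20.7% and 12.1%. Arr3 had none in 1.42% and 2.05%, Gnat2 in 6.33% and 7.97%, Pde6c in 6.49% and 7.52%, and Cngb3 in 6.49% and 6.83%. Pde6h had none in 11.4% and 9.57% and Gngt2 in 13.8% and 19.6%, and the sparse Cnga3 in 75.9% and 69.7%. Summed over cones, Opn1sw made up 72.9% (72.3 to 73.6) of opsin UMIs in Ptbp1-Ctrl and 72.1% (71.5 to 72.8) in Ptbp1-KO. Of the cones, 1 and 4 had neither opsin.

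The cones of the 2 libraries differed in how the opsins were combined. Both opsins were found in 389 of 632 Ptbp1-Ctrl cones (61.6%, 57.6 to 65.4) and in 340 of 439 Ptbp1-KO cones (77.4%, 73.2 to 81.3), while 0.0795% and 0.0753% of rods had both. Among the deeper MG, with medians of 3333 and 4178 UMIs, 0.872% and 0.760% of cells had both. Thinned to 1000 UMIs, the shares were 49.1% (44.96 to 53.2) of 589 cones and 64.9% (60.2 to 69.5) of 425 cones, with 43 and 14 shallower cones left out. Cones with at least 5 opsin UMIs, 605 and 421 of them, were sorted by the share of Opn1sw among their opsin UMIs into M-rich (at most 0.2), S-rich (at least 0.8) and mixed cones. Mixed cones numbered 119 (19.7%, 16.6 to 23.1) in Ptbp1-Ctrl and 166 (39.4%, 34.7 to 44.3) in Ptbp1-KO. S-rich cones numbered 327 (54.0%) and 174 (41.3%), and M-rich cones 159 (26.3%) and 81 (19.2%). Both ends of the range were less filled in Ptbp1-KO: a share of Opn1sw above 0.9 was found in 39.0% (35.1 to 43.0) of Ptbp1-Ctrl and 23.04% (19.1 to 27.4) of Ptbp1-KO cones, and a share below 0.1 in 21.8% (18.6 to 25.3) and 14.0% (10.8 to 17.7). The classes are ranges of a continuous measure, with 22 and 19 cones within 0.05 of the lower limit and 61 and 71 within 0.05 of the upper. With each cone thinned to 10 opsin UMIs, a choice made after the data were seen, mixed cones were 16.5% and 31.8%. Which part of the retina each cone came from is not recorded, so a different sampling of dorsal and ventral retina and a different expression per cone cannot be told apart, nor can genotype be told apart from animal.

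**Figure D4:**
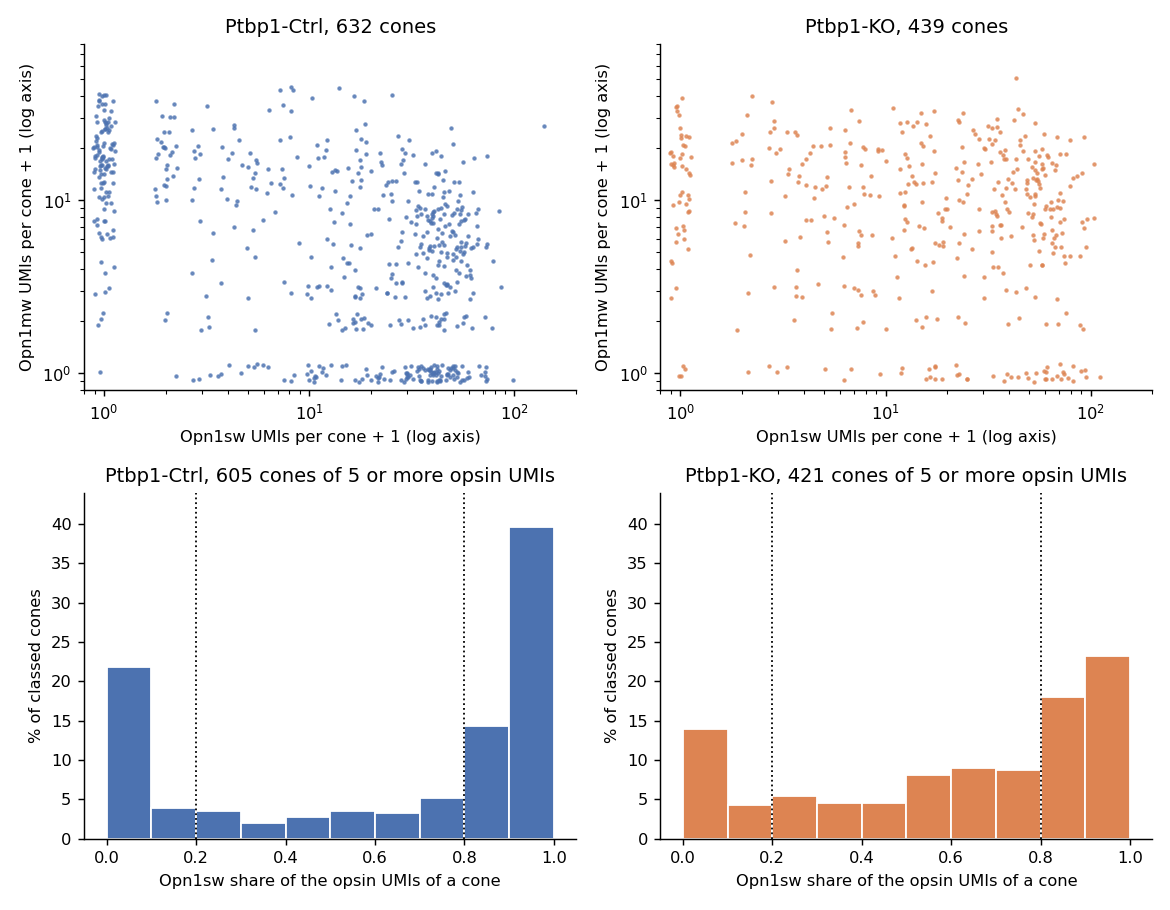
Upper panels plot Opn1mw against Opn1sw UMIs for each cone (UMIs + 1, log axes, points spread slightly to show overlap) in Ptbp1-Ctrl and Ptbp1-KO, and lower panels the percent of classed cones by the Opn1sw share of their opsin UMIs, with dotted lines at the class limits of 0.2 and 0.8. The highest bar in Ptbp1-Ctrl is the last one at 39.7%, which stands at 23.3% in Ptbp1-KO, where the middle of the range is fuller.

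Levels within the classes show how the opsins themselves, which set the classes, were spread. Opn1mw was at 6436, 4699 and 955 CPM in M-rich, mixed and S-rich cones of Ptbp1-Ctrl and at 5352, 4418 and 1363 CPM in Ptbp1-KO. Opn1sw was at 286, 6467 and 13861 CPM in Ptbp1-Ctrl and at 343, 6511 and 14047 CPM in Ptbp1-KO. Within classes, Pde6c was lower in Ptbp1-KO throughout, with log2 ratios of -0.27, -0.32 and -0.41 in M-rich, mixed and S-rich cones, none of whose intervals included 0. Arr3 was higher by 0.16 (0.09 to 0.23) in M-rich and 0.33 (0.27 to 0.39) in S-rich cones, and in mixed cones it was at 0.03 (-0.04 to 0.09).

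Among the 7 members other than opsins, Arr3 had the ratio of largest size between the opsin classes in both libraries when all UMIs were used. It stood at 9565 CPM (9289 to 9847) in M-rich and 5258 CPM (5109 to 5410) in S-rich cones of Ptbp1-Ctrl, which gives -0.86 (-0.92 to -0.80) on the log2 scale, and at 10701 CPM (10308 to 11104) and 6607 CPM (6402 to 6817) in Ptbp1-KO, a ratio of -0.70 (-0.77 to -0.63). Mixed cones held Arr3 at 9167 and 9348 CPM, nearer to the M-rich than to the S-rich level. Arr3 was the 1 of the 7 members other than opsins to pass 0.5 with the same sign in both libraries, which 3.59% of 3705 genes did. With cells thinned to 1000 UMIs, Pde6h (0.53 and 0.67) and Cnga3 (-0.68 and -0.84) passed it too, next to -0.997 and -0.72 for Arr3, and with class limits of 0.1 and 0.9 Cnga3 did so at -0.70 and -0.61. Gngt2 and Pde6h were higher in S-rich cones, at 0.30 (0.21 to 0.38) and 0.40 (0.33 to 0.47) in Ptbp1-Ctrl and at 0.54 (0.42 to 0.65) and 0.33 (0.24 to 0.42) in Ptbp1-KO. Cngb3 was lower, at -0.23 (-0.33 to -0.12) and -0.39 (-0.53 to -0.26). Cnga3 gave -0.50 and -0.52 with intervals that included 0 in both, Pde6c 0.21 and 0.06, and Gnat2 -0.14 and 0.05. In all, 6 of the 7 had the same sign in both libraries, next to 2071 of 3705 genes, and their medians were -0.14 and 0.05, next to -0.01 in each library over all genes.

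**Figure D5:**
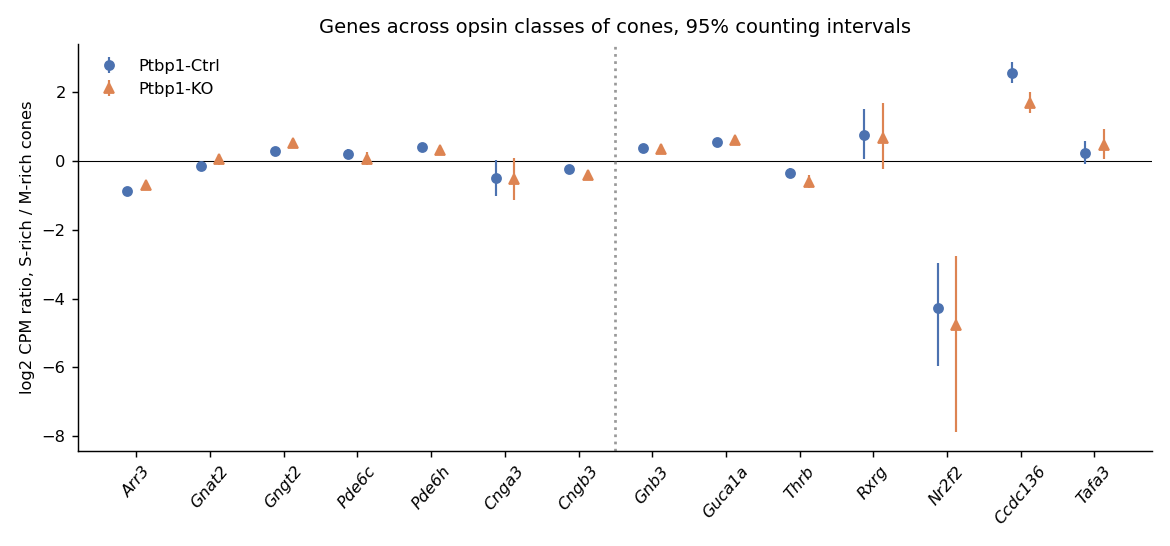
The log2 ratio of S-rich over M-rich cones in Ptbp1-Ctrl (blue circles) and Ptbp1-KO (orange triangles), with 95% counting intervals, for the 7 members other than opsins (left of the dotted line) and for selected partners and regulators. Arr3 lies at -0.86 and -0.70, Nr2f2 below -4 in both libraries, and Ccdc136 at 2.57 and 1.70.

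Opsin choice in mouse cones is known to depend on nuclear receptors, among them Thrb, whose TRβ2 form is needed for Opn1mw, and Rxrg, which acts in repressing Opn1sw. Thrb was lower in S-rich than in M-rich cones, at -0.36 (-0.50 to -0.21) in Ptbp1-Ctrl and -0.60 (-0.78 to -0.41) in Ptbp1-KO, and Rxrg was at 0.76 (0.07 to 1.51) and 0.68 (-0.23 to 1.69). Nr2f2, a nuclear receptor of dorsal retina, had 51 UMIs in M-rich and 5 in S-rich cones of Ptbp1-Ctrl, and 24 and 2 in Ptbp1-KO, which gives log2 ratios of -4.27 (-5.96 to -2.96) and -4.76 (-7.89 to -2.75), although it lay under the minimum of 50 CPM set for counted genes. Nr2f1 had 0 UMIs in Ptbp1-Ctrl cones, where the floor of 3 counts corresponds to 1.72 CPM, and 6 in Ptbp1-KO cones. Of the 12 regulators listed, 9 were measured above the minimum, 1 of which, Rxrg, passed 0.5 in both libraries. Ccdc136, whose gene lies 7840 bases from the GENCODE span of Opn1sw on chromosome 6 (29396309 to 29426994, opposite strand), stood at 225 CPM in M-rich, 948 CPM in mixed and 1339 CPM in S-rich cones of Ptbp1-Ctrl and at 408, 952 and 1321 CPM in Ptbp1-KO. The RefSeq start of Opn1sw used above lies inside that span, farther from Ccdc136. Guca1a, a guanylate cyclase activator, was the 1 of 13 pathway partners to pass 0.5 in both, at 0.55 and 0.61, and none of the 9 rod counterparts did so. Gnb3 was at 0.38 and 0.34.

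By the rule for naming genes by size, the largest differences toward S-rich cones were Hopx (6.09 and 5.01), App (5.17 and 4.14), 5430419D17Rik (3.32 and 2.79), Syndig1l (3.97 and 2.71) and Tenm3 (2.70 and 2.41), as log2 ratios in Ptbp1-Ctrl and Ptbp1-KO. Hopx, which encodes a homeodomain-only protein, had 6 UMIs in M-rich and 776 in S-rich cones of Ptbp1-Ctrl, and 8 and 583 in Ptbp1-KO. Toward M-rich cones they were Cdh12 (-4.92 and -5.55), Gm44532 (-4.53 and -4.80), B130024G19Rik (-3.07 and -4.18), Mdga2 (-3.48 and -2.46) and Smug1 (-2.58 and -2.46). Mixed cones held Hopx at 286 and 307 CPM and Cdh12, a cadherin gene, at 76.2 CPM in Ptbp1-Ctrl, between the levels of the other classes.

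The partners of the cascade were compared between the genotypes in the same cones. Of 13 partners, which supply calcium feedback, opsin kinase and signal shutoff, 3 stood higher in Ptbp1-KO and 10 lower, the median log2 ratio being -0.11, and 3 passed 0.25, all lower: Rcvrn, a calcium sensor (-0.26), Gucy2f, a retinal guanylate cyclase (-0.39, on 168 and 105 UMIs), and Kcnv2, a potassium channel subunit (-0.28, with an interval of -0.59 to 0.03). Guca1a was at -0.22 (-0.27 to -0.17), and Slc24a2, the cone sodium, calcium and potassium exchanger, at 0.14 (0.01 to 0.27). Of the 9 rod counterparts, whose summed level in cones was 42.7% and 42.9% of that in rods, 3 were higher and 6 lower with a median of -0.12, and Pde6g (-0.33) and Cnga1 (-0.31) passed 0.25. In rods themselves Pde6g was at -0.39 and Cnga1 at -0.17. The partners named above were in rods at -0.17 (Rcvrn), -0.13 (Gucy2f), -0.11 (Kcnv2), -0.22 (Guca1a) and 0.74 (Slc24a2, on 51 and 95 UMIs). Of the 9 measured regulators, Otx2 was higher (0.40) and Rorb (-0.30), Pias3 (-0.26) and Sall3 (-0.30) were lower by more than 0.25, with a median of 0.04. The intervals of Pias3 (-0.68 to 0.16) and Sall3 (-0.65 to 0.05) included 0. In rods Otx2 was at 0.39, Rorb at -0.09, Pias3 at -0.13 and Sall3, on 13 and 15 UMIs, at 0.05. Over all 3997 genes, 1820 were higher and 2177 lower, 513 and 594 of them by at least 0.25.

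Among the other genes, those whose level over the 10 sums of 5 cell types and 2 libraries ran most like the mean of the 9 members were Klhl4 (r = 0.993), Sall3 (0.992), Ppm1j (0.987), Eya1 (0.984) and Gpat3 (0.983), by Pearson's correlation of log2(CPM + 1) over 3731 genes with at least 50 CPM in cones of both libraries. The members themselves correlated with their mean at 0.964 for Cngb3 to 0.998 for Opn1sw. Klhl4 stood at 104 and 105 CPM in cones and at 8.89 CPM in BC of Ptbp1-Ctrl. The 10 sums share cell types, libraries and animals, so these values rank likeness and carry no p-value.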

How the data were processed

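Retinas of 1 Ptbp1-Ctrl and 1 Ptbp1-KO mouse, grouped by the genotype in the sample labels, were dissociated with papain and profiled with 10x Genomics chemistry. The authors aligned reads to mm10 with Cell Ranger 7.0.1, filtered and clustered cells with Seurat 4 (over 200 and under 5000 genes, over 700 and under 10000 UMIs, under 20% mitochondrial) and named cell types from marker genes. The deposited table holds raw UMI counts per gene and cell, and the deposited cell table gives total UMI counts, genes per cell, the percent of mitochondrial UMIs, a cluster number and a cell type. These names were used as deposited. The annotation counted against and the treatment of introns are not given in the sources used here, nor is doublet removal.

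UMIs were summed by library and cell type and expressed as CPM, with exact Poisson intervals. Log2 ratios have exact conditional binomial intervals and shares of cells exact Clopper-Pearson intervals, all at 95% and covering counting error only. Cells of 1 mouse are not replicates, so no test was run, and the Wilcoxon test of the study was not used. The median depth of cones was 2659.5 and 3179 UMIs. Ratios over all genes used those with a mean of at least 50 CPM and 50 UMIs. For shares at equal depth, cells were thinned to 1000 UMIs. The ratio code was tested on simulated data.

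The 9 genes, the gene lists and the fold rules of 0.25 and 0.5 were chosen with earlier results of these data known. Genes named were the 9 members, the listed partners, rod counterparts, regulators and S cone genes (Ccdc136 and Tafa3), the 5 genes most like the members across 10 sums, and the 5 largest differences each way between S-rich and M-rich cones. The rod lists were fixed with 1 further gene, which is not reported here and was left out of their sums, counts and medians. Cluster 5, Abhd14b, Prkca and Malat1 were named after their values were seen.

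Gene positions are from GENCODE and promoters from RefSeq, both on GRCm38, which is mm10. The promoter table held 6 of the 9 genes. Alternatives were other scalings (TMM of edgeR 4.0.16), thinning, other class limits, other expression minimums and subsets of cones. Analyses ran in Python 3.11.15 with numpy 2.4.6, scipy 1.17.1 and pandas 2.3.3.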

Additional observations from a re-analysis of the deposited data

Results flagged for a closer look

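For 3 members the ratio of Ptbp1-KO over Ptbp1-Ctrl in another cell type pointed away from the ratio in cones, with counting intervals off 0 in both. Opn1mw and Cngb3, whose intervals in cones included 0, are not counted among them: Opn1mw was at -0.41 (-0.52 to -0.30) in BC and -0.88 (-1.26 to -0.51) in AC, and Cngb3 at -0.32 (-0.63 to -0.01) in AC. With 1 library per genotype, none of these differences between types was tested. Arr3 had a log2 ratio of -0.23 (-0.30 to -0.16) in BC and 0.24 in cones, and without BC cluster 21 its BC level was 76.5 CPM in Ptbp1-Ctrl cells against 68.3 CPM in those of Ptbp1-KO. Gngt2 had a log2 ratio of -0.34 (-0.60 to -0.08) in AC, on 198 and 308 UMIs, and 0.06 in cones. Pde6h had a log2 ratio of 0.15 (0.01 to 0.30) in rods, on 749 and 927 UMIs, and -0.06 in cones. All of these levels outside cones were at or under 5.04% of the level in cones.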

How the results depend on the processing

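No paired analysis was possible because each genotype has 1 library and no replicate numbers. Of the values for single genes under other settings, 100 stayed within the counting interval of the reported value and 32 moved beyond it. Of the summary values, 43 moved: shares beyond their counting interval, counts and percents of genes by over 1.5 times, and medians beyond a set margin, and 77 did not. The median log2 ratio of the members in cones, 0.01, was -0.049 as the mean of CPM per cone and -0.093 in cones under 2000 UMIs. The number of members at or beyond 0.25, 1 of 9, was 2 with cells thinned to 1000 UMIs, 2 with the mean of CPM per cone, 2 with means within opsin classes and 4 in cones under 2000 UMIs, where 2 were at or beyond 0.5. The percent of all genes at or beyond 0.25 was 46.8 in thinned cells, 38.1 with a minimum of 10 CPM and 19.3 with 200 CPM, and that at or beyond 0.5 was 15.1 in thinned cells, 11.47 with a minimum of 10 CPM and 2.67 with 200 CPM. The ratio of Gngt2 turned from 0.06 to -0.17 in thinned cells and to -0.07 as the mean per cone. Pde6c ranged from -0.39 to -0.09 and Arr3 from 0.17 to 0.47 over all settings.

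The median log2 ratio of cones over the next type, 4.31 in Ptbp1-Ctrl and 4.65 in Ptbp1-KO, was 5.07 and 4.88 in thinned cells, 5.01 and 4.998 without the 5% of cells with the most UMIs, and 5.61 and 6.02 without BC cluster 21. The Opn1sw share of opsin UMIs was 62.3% and 60.6% as the mean over cones and 73.8% and 70.7% in thinned cells. With class limits of 0.1 and 0.9, M-rich, mixed and S-rich cones were 22.5%, 37.9% and 39.7% in Ptbp1-Ctrl and 14.0%, 62.7% and 23.3% in Ptbp1-KO. With at least 20 opsin UMIs, M-rich and S-rich cones were 17.5% and 62.6% in Ptbp1-Ctrl and 11.3% and 49.3% in Ptbp1-KO. With each cone thinned to 10 opsin UMIs, mixed and S-rich cones were 16.5% and 58.2% in Ptbp1-Ctrl and 31.8% and 47.4% in Ptbp1-KO. Cones with both opsins were 49.8% and 69.5% at 2 UMIs of each, 40.7% and 62.0% at 3, 49.1% and 64.9% when thinned, and 65.9% and 82.8% among cones of at least 2000 UMIs. In all of these settings mixed cones and cones with both opsins were more frequent in Ptbp1-KO. The cause of these shifts was not tested.

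Settings with shared barcodes, cluster 21 or the deepest cones left out of classes, thinning to 10 opsin UMIs and the split at 2000 UMIs were added after the data had been seen. All deposited cones lay in 1 cluster, so restricting to the largest cone cluster gave the same values.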
